A study of Mus musculus with 42 samples.

Results

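The EGR, IER and KLF immediate early genes are described here as 10 members, which are Egr1, Egr2, Ier2, Ier3, Ier5, Klf2, Klf4, Klf6, Klf10 and Myc. They were chosen by name: the 10 gene rows of the RNA-seq tables and the 61 clusters of poly(A) sites (PASs) that lie inside each gene or up to 4 kb past its end on the same strand, short of the next gene. These are 10 of 12365 genes in the RNA-seq tables, 10 of 15163 genes with a PAS cluster, and 61 of 83916 clusters. The series measured poly(A)+ RNA of mouse cells by 3′READS (38 libraries), which counts reads that end at a poly(A) tail and gives about the same number of reads per transcript whatever its length, and by RNA-seq (4 libraries). NIH3T3 cells, a mouse embryonic fibroblast line, were untreated (NT), given sodium arsenite, an oxidative stressor, at 250 µM over 1 h (AS), or stressed and then left to recover without arsenite for 4, 8, 12 or 24 h (RC4 to RC24). Total NIH3T3 RNA was read in 3 NT and 3 AS libraries (replicates 1, 2 and 4) and 1 library per recovery time (replicate 4), beside 1 RNA-seq library each of NT at 0 h, AS, NT at 4 h and RC4. In the same 4 conditions, RNA was labelled with 50 µM 4-thiouridine (4sU) in the last 1 h of culture. It was split into a 4sU fraction, enriched for newly made RNA, and a flow-through (Ft), enriched for older RNA, 1 library each. How much newly made RNA stayed in Ft was not measured. Cytoplasmic RNA bound to the RNA-binding protein TIA1 was pulled down from NT and AS cells, with the input lysate beside it, 2 libraries each. C2C12 cells, a mouse myoblast line, were used as proliferating myoblasts (C2C12P) or after differentiation in low serum (C2C12D), with cytoplasmic RNA of NT at 0 h, NT at 4 h, AS and RC4 (1 library each) and total RNA of untreated cells (2 libraries each). The labels give the strain of all samples as C57BL/6.

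Immediate early genes are transcribed within minutes of a growth factor or stress signal without the need for new protein. Mitogen-activated protein kinases act on transcription factors such as the SRF and ELK proteins that already sit at their promoters, and the transcripts are as a rule short-lived, in part through AU-rich elements in the 3′UTR. EGR1 and EGR2 are zinc finger activators, the KLF proteins are zinc finger factors of GC-rich promoters, and MYC is a bHLH factor of growth and cell cycle genes. IER2, IER3 and IER5 are small proteins of the same early response, IER3 with a role in survival signalling and IER5 with a role in the heat shock response.

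The 3′READS libraries held 1048335 to 6974664 reads and the RNA-seq libraries 17137579 to 25194062. Sites with under 5 reads in a library are not in the tables, so a member called unlisted below had fewer than 5 reads at each of its sites. The myoblast markers Myod1, Myf5 and Des were unlisted in every NIH3T3 library, and the summed level of 6 myotube markers was 10341 to 21216 RPM (reads per 1000000 reads of the library) in C2C12D and 76.7 to 260 in C2C12P. A check list of 6 arsenite response genes summed to 887 to 1881 RPM in NT and 3599 to 6428 RPM in AS total RNA, and to 26752 RPM at RC4. The labels do not say whether libraries of a group came from separate cultures, so p-values measure only the spread between these libraries. In these bulk samples fewer cells that hold a transcript and less of it per cell cannot be told apart.

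Most members end mainly at 1 poly(A) site. The last 30 bases before the main site are shown because they hold the poly(A) signal, the hexamer read by the cleavage machinery, here in capitals where it is AATAAA or ATTAAA (mm9, mRNA strand, 5′ to 3′). Ier5 and Klf6 have a further site that the results below turn on, and the 2 sites of Myc lie 105 bases apart.
Ier2, chr8:87185233-87185262, minus strand: gctaggaaAATAAAgaccatcggtgtaaaa
Ier3, chr17:35959833-35959862, plus strand: cgAATAAActtgatttgcctgtcattatta
Ier5 proximal, chr1:156944656-156944685, minus strand: gtctaacacgtATTAAAtattttgaagcaa
Ier5 distal, chr1:156943497-156943526, minus strand: atacatagAATAAAacatgctttaatcaga
Egr2, chr10:67004907-67004936, plus strand: tatggtgtaAATAAAtacttttcaacaata
Klf2, chr8:74845221-74845250, plus strand: tttaATTAAAgttttggatctttggaggaa
Klf4, chr4:55540009-55540038, minus strand: taaacctataatattttatctgaacgacaa
Klf6 proximal, chr13:5869040-5869069, plus strand: cgagcaatgATTAAAgctcccttaactgct
Klf6 distal, chr13:5869611-5869640, plus strand: cgaataacataaaaagaattcttatcagca
Klf10, chr15:38224168-38224197, minus strand: tgtttacAATAAAgacttttctttggtata
Myc proximal, chr15:61821781-61821810, plus strand: tAATAAAacgtttataacagttacaaaaga
Myc distal, chr15:61821886-61821915, plus strand: tagaaaaaAATAAAataattggaaaaaata
The main site carried 99.9% of the listed reads of Ier3 and Klf2, 99.8% of Ier2, 99.1% of Egr2, 96.4% of Klf4, 91.6% of Klf6 (the distal site), 90.5% of Ier5 (the proximal site) and 75.9% of Myc (the distal site), and Klf10 had a single site. Neither hexamer lies in the 30 bases before the main sites of Klf4 and Klf6, although AATAAA lies within 45 bases of the Klf4 site. Over all clusters of the series 53.8% had 1 of the 2 hexamers within 45 bases, against 18 of the members' 61, 40 of which each hold under 1% of their gene's reads. Egr1 spread its reads over 20 sites, more than any other member, with 55.6% at its main site and 27.5% at a site 47 bases before it. Of the 2477 reads at the main site, 1260 and 964 came from AS and NT total RNA of replicate 1. The site 47 bases before it was listed in 20 libraries, against 14 for the main site.

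AU-rich elements are built of the pentamer ATTTA, and the heptamer TATTTAT is the stricter form. Ier3 was the densest member, with 5 ATTTA and 4 TATTTAT in a 3′UTR of 607 bases, more ATTTA per kb than 97.6% of 12480 genes. Klf6 had 7 and 2 in 3111 bases, Klf10 4 and 1 in 1492 bases, and Klf2 1 and 1 in 432 bases. Egr2 had 3 ATTTA, Egr1 and Myc 2, and Klf4 1, without a TATTTAT, and Ier2 (752 bases) and the proximal Ier5 3′UTR (978 bases) had neither. Over all 12480 genes 58.6% held an ATTTA and 23.4% a TATTTAT in the 3′UTR of the main site. Some windows of the 3′UTRs are shown with ATTTA in capitals, for the members that hold a TATTTAT.
Ier3, chr17:35959426-35959455, plus strand: tgtctaattaatATTTAtgtATTTAtgtat
Ier3, chr17:35959531-35959560, plus strand: tgtaacacagatATTTAttacgATTTAtag
Klf2, chr8:74844887-74844916, plus strand: aaacagactgctATTTAttggaccttagga
Klf10, chr15:38224674-38224703, minus strand: cagtgtctttttATTTAtaggagtttttca
Klf6, chr13:5868189-5868218, plus strand: cacaccggctgtATTTAttatgtaacattg

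Promoters were taken from the RefSeq set (GRCm38.p6, 250 bases before to 50 after a start site), which matched 6 of the 10 members, Egr2, Ier3, Ier5, Klf2, Klf4 and Klf6. The CArG box, the site read by SRF, was found only in Egr2 among them, in windows before several of its 5 annotated starts, and in 1.81% of 27025 genes. The E-box CACGTG, the core site of MYC and its relatives, was in promoters of Egr2, Klf4 and Klf6 and in 8.09% of all genes. The cAMP response element, the AP-1 site, the EGR site and the TATA box were in none of the 6, in windows that hold them for 0.707% (EGR site) to 15.7% (TATA box) of genes. These are matches of letters on either strand. The CArG boxes of Egr2 are in capitals.
Egr2, chr10:67537484-67537513, plus strand, GRCm38.p6: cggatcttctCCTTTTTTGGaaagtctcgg
Egr2, chr10:67537787-67537816, plus strand, GRCm38.p6: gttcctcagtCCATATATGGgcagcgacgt

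In the RNA-seq libraries 6 of the 10 members were at least 2-fold higher after 1 h of arsenite and none was lower by that much, against 3.98% of 11320 genes higher and 1.86% lower. These were Egr2 (13.0-fold), Egr1 (7.85-fold), Klf10 (3.21-fold), Klf6 (3.15-fold), Ier2 (2.83-fold) and Klf4 (2.37-fold). Myc was 1.58-fold, Ier3 1.41-fold, Ier5 1.13-fold and Klf2 0.871-fold of NT. With 1 library a condition there is no replicate check, and the untreated libraries taken 4 h apart put none of the 10 past 2-fold (1.35% of genes higher, 1.55% lower). At RC4, 6 of the 9 members listed in both libraries were at least 2-fold higher than NT at 4 h, against 16.1% of genes higher and 14.7% lower. Klf6 was then 5.35-fold, Egr1 5.27-fold, Ier3 4.43-fold, Klf4 4.23-fold, Egr2 2.33-fold and Ier5 2.28-fold of NT. Klf2 had 67 reads in NT at 4 h and was unlisted at RC4, which is at least 11.3-fold lower if 5 reads are allowed for the unlisted library. Klf10 was back at 1.19-fold of NT. These RC4 folds and the shares of genes beside them rest on scaling by median ratios, and scaling to library size gives smaller rises.

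Set per kb of coding sequence, the order of levels in untreated RNA-seq was Ier3 at 262 and 267 RPKM (reads per kb of coding sequence, scaled to library size; NT at 0 h and 4 h), Myc at 111 and 151, Ier5 at 96.6 and 109.3, Egr1 at 81.7 and 107, Ier2 at 47.0 and 59.8, Klf6 at 26.0 and 28.4, Klf4 at 12.8 and 10.3, Klf10 at 8.22 and 7.51, Egr2 at 5.92 and 6.38 and Klf2 at 3.71 and 3.68. The ranges of the 2 libraries overlapped between Ier5 and Egr1 and separated the other neighbours. After arsenite Egr1 led at 623 RPKM, ahead of Ier3 at 358 and Myc at 171. At RC4 Ier3 led at 677 RPKM, ahead of Egr1 at 322. RPKM is scaled to library size only. By it Egr1, Ier3, Klf6 (87.0 RPKM against 28.4) and Klf4 (25.1 against 10.3) stayed past 2-fold of NT at 4 h. Egr2 (8.52 against 6.38) and Ier5 (142.5 against 109.3) were higher by less than 2-fold, and Ier2 (54.5 against 59.8) was lower.

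Across all library types, 10 pairs of an AS library and its NT library can be formed, of which those of the 4sU and Ft fractions share their cells. Ier3, Klf6 and Klf10 were higher in AS in all 10 pairs, as were 2.65% of 5805 genes with at least 20 reads in each pair, and no member was lower in all, as 1.57% were. Egr2 was higher in the 9 pairs in which it was listed, Ier2 in 9 of 10, Egr1 in 8 of 9, Klf2 and Myc in 8 of 10, Ier5 in 7 of 10 and Klf4 in 6 of 9. Median log2 ratios of RPM + 1 (of scaled counts in RNA-seq) were 3.39 for Egr1, 3.07 for Egr2, 2.14 for Ier2, 1.63 for Klf6, 1.11 for Klf10, 0.87 for Ier3, 0.79 for Klf2, 0.69 for Myc, 0.41 for Klf4 and 0.31 for Ier5. Egr1 was unlisted, and set to 0 RPM, in NT of Ft, of both input pairs and of both C2C12 states. Its median and rank therefore depend on the 1 RPM added. In the 6 pairs of RC4 against NT the order differed. Egr1 was higher in 6 of 6, with a median log2 ratio of 4.04, and Klf2 was lower in 6 of 6, with a median of -3.70. Of 6058 genes with at least 20 reads in each 3′READS pair and listed in RNA-seq, 9.52% were higher in all and 21.3% lower. Egr1 and Klf2 are not among these genes, since Egr1 had 8 reads in the C2C12P pair and Klf2 was unlisted in RNA-seq at RC4. Egr1 was also unlisted in NT of the time course and of both C2C12 states. Its count and median are therefore a description. Klf6, Ier3, Ier2, Ier5 and Myc were each higher in 5 of 6, Klf10 was lower in 4 of 6, and Egr2 was higher in 2 and lower in 3 of 5.

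**Figure D1:**
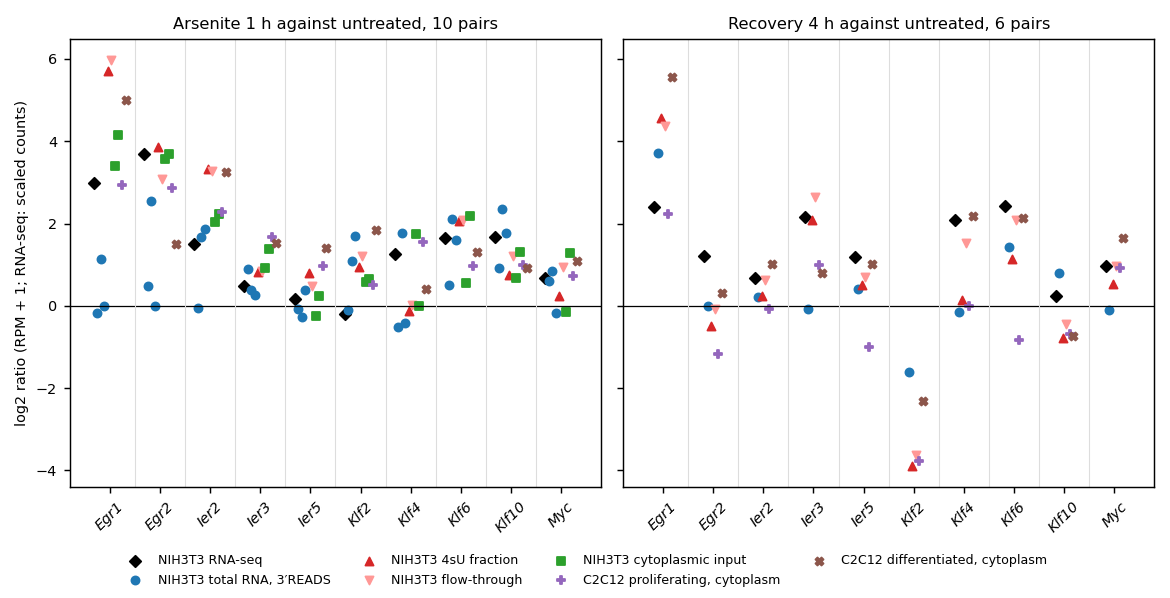
The log2 ratio of each member (y axis, RPM + 1, or scaled counts for RNA-seq) is plotted for each pair of an arsenite (left, 10 pairs) or 4 h recovery library (right, 6 pairs) and its untreated library, with 1 symbol per library type. Pairs in which a member was unlisted on a side in RNA-seq are not drawn. 3′READS pairs in which a member was unlisted on both sides are drawn at 0, although nothing was measured there. Egr1, Egr2 and Ier2 reach log2 ratios over 3 in arsenite, and Klf2 is below 0 in every recovery pair drawn.

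Egr1 was the member whose level depended most on the library. In NIH3T3 total RNA of replicate 1 it stood at 352 RPM in NT and 312 RPM in AS, against 3.66 and 9.32 RPM in replicate 2, and it was unlisted in both libraries of replicate 4. Replicate 1 therefore held Egr1 at a high level without arsenite, and the mean was 118 ± 202 RPM in NT and 107 ± 177 RPM in AS (SD, n = 3). The reads of replicate 1 also lay at another site, with 97.5% (NT) and 97.4% (AS) of those at the main pair of sites on the distal site, against 0 to 28.6% in the AS libraries of the other NIH3T3 sets and of C2C12. Other untreated libraries had too few reads at this pair of sites to place them, with 8 of 13 distal in the 4sU fraction at 0 h, 0 of 11 at 4 h, 7 of 7 in Ft at 4 h and 0 of 14 in total RNA of replicate 2. In the 4sU, Ft and cytoplasmic input libraries the level was low without arsenite and higher with it. In the 4sU fraction Egr1 was at 5.17 RPM in NT, 322 in AS, 2.78 in NT at 4 h and 88.0 at RC4. In cytoplasmic input it was unlisted in both NT libraries and at 9.48 and 16.9 RPM in AS. In the replicate 4 time course Egr1 was listed at RC4 only, at 12.2 RPM.

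Egr2 differed from Egr1 in the labelled RNA at recovery. Its 4sU level was 139 RPM in NT, 2027 in AS, 123 in NT at 4 h and 87.3 at RC4, 1 library each. It was thus under its untreated level 4 h after arsenite was removed while Egr1 was not. The median log2 ratio of all genes in this fraction at RC4 was also below 0, at -0.29, and in RNA-seq Egr2 was higher at RC4. In Ft Egr2 was at 40.2 RPM in NT, 346 in AS, 51.0 in NT at 4 h and 48.5 at RC4. In cytoplasmic input it was at 6.04 and 7.53 RPM in NT and at 82.6 and 109.9 RPM in AS. In total RNA it was at 45.3, 15.8 and unlisted in NT and at 63.8, 96.9 and unlisted in AS (replicates 1, 2 and 4), with the low and high libraries overlapping between groups.

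Ier2 was the most abundant member in the 4sU and Ft fractions of AS cells. Its 4sU level was 307 RPM in NT, 3079 in AS, 250.2 in NT at 4 h and 297 at RC4, and its Ft level was 167, 1619, 188 and 292 RPM. In total RNA it was at 813, 324 and 129 RPM in NT and at 788, 1031 and 474 RPM in AS (replicates 1, 2 and 4), so that replicate 1 held as much without arsenite as with it. Cytoplasmic input had 147 and 161 RPM in NT against 606 and 764 RPM in AS, which did not overlap.

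Ier3 was further from NT at RC4 than in AS in both fractions. In the 4sU fraction it was at 543 RPM in NT, 964 in AS, 421 in NT at 4 h and 1796 at RC4, and in Ft at 245, 439, 243 and 1527 RPM. In total RNA it was at 215, 812 and 1320.1 RPM in NT and at 401, 1069 and 1596 RPM in AS (replicates 1, 2 and 4), higher in each pair while the groups overlapped. The replicate 4 time course gave 1261 RPM at RC4, close to its NT library, and 654, 873 and 675 RPM at 8, 12 and 24 h. The higher level at RC4 was therefore seen in RNA-seq and in both fractions and not in that time course.

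Ier5 had the lowest median ratio of the members in AS. Its 4sU values were 531 RPM in NT, 926 in AS, 424 in NT at 4 h and 602 at RC4, and its Ft values 242, 336, 237 and 385 RPM. In total RNA it was at 36.5, 35.2 and 69.0 RPM in NT and at 34.8, 28.8 and 90.8 RPM in AS.

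Klf2, an endothelial and lymphocyte quiescence factor, was the member that stood lower at RC4 in every pair. In the 4sU fraction it was at 284 RPM in NT, 545 in AS, 259 in NT at 4 h and 16.5 at RC4, and in Ft at 197, 461, 233 and 17.9 RPM. The log2 ratio of RC4 to NT was -3.90 in the 4sU fraction (95% counting interval -4.34 to -3.63), below all but 0.245% of genes, and -3.63 in Ft, below all but 0.404%. Intervals of this kind cover counting error only. In total RNA Klf2 was at 199, 77.7 and 69.7 RPM in NT and at 186, 165 and 228 RPM in AS, and in replicate 4 it was at 22.3 RPM at RC4, 135 at 8 h, 182 at 12 h and 65.8 at 24 h, so that its level at 8 h was again above NT.

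Klf6, a broadly expressed injury response factor, was higher in AS in both the 4sU fraction and Ft. Its 4sU level was 286 RPM in NT, 1192 in AS, 278 in NT at 4 h and 614 at RC4, and its Ft level 38.8, 168, 34.1 and 148 RPM. In total RNA it was at 151, 20.4 and 32.1 RPM in NT and at 216, 91.8 and 100.1 RPM in AS, higher in each of the 3 pairs. Klf10, a factor induced by TGF-beta, was at 289, 488, 229 and 133 RPM in the 4sU fraction and at 57.2, 135, 68.1 and 49.8 RPM in Ft, in the same order of conditions. It was under its untreated level at RC4 in both fractions. The median log2 ratio of all genes at RC4 was also below 0, at -0.29 in the 4sU fraction and -0.42 in Ft. In total RNA Klf10 was at 100.5, 7.33 and 33.5 RPM in NT and at 191, 41.7 and 117 RPM in AS. Klf4, a pluripotency and differentiation factor, was rare by 3′READS, at 16.3, 14.7, 11.4 and 12.6 RPM in the 4sU fraction, 4.09, 4.16, 3.32 and 11.4 RPM in Ft and at most 6.03 RPM in total RNA, levels at which the tests below had little to work on.

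Myc was at 199, 234, 251 and 365 RPM in the 4sU fraction and at 39.5, 76.8, 58.2 and 114 RPM in Ft (NT, AS, NT at 4 h, RC4). In total RNA it was at 59.8, 13.5 and 32.8 RPM in NT and at 91.1, 25.2 and 28.9 RPM in AS. Its NT and AS libraries overlapped in total RNA, and its highest level in both fractions was at RC4.

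**Figure D2:**
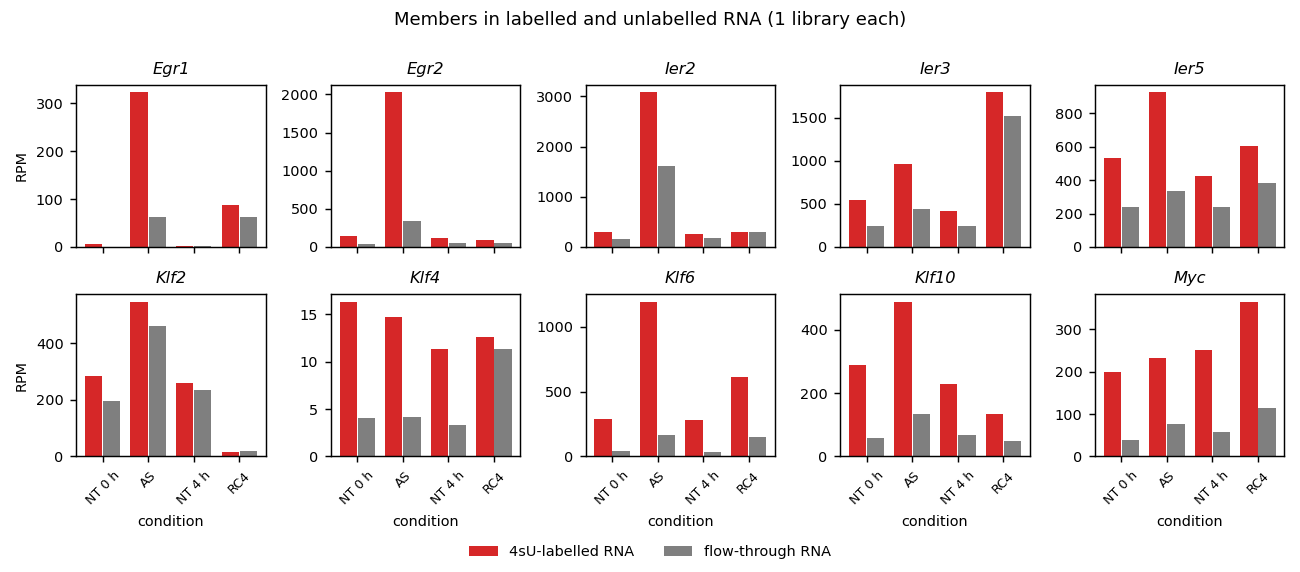
Bars show the RPM (y axis, from 0, scale set per gene) of each member in the 4sU fraction (red) and the flow-through (grey) of untreated cells at 0 h, arsenite, untreated cells at 4 h and 4 h of recovery, 1 library each. Egr2 and Ier2 peak in arsenite at 2027 and 3079 RPM of the 4sU fraction, Ier3 and Myc are highest at recovery, and Klf2 is at 16.5 and 17.9 RPM at recovery.

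The replicated comparison of total RNA (3 AS against 3 NT libraries) called no member and no gene (0% of 9534 in either direction, edgeR quasi-likelihood test, Benjamini-Hochberg adjusted p under 0.05), with 20 genes and no member at an unadjusted p under 0.05. DESeq2 called none either. The fitted log2 changes were 1.44 ± 1.72 (SE) for Egr2, 1.35 ± 0.94 for Klf10, 1.05 ± 0.81 for Klf6 and 0.88 ± 0.71 for Ier2, all within the spread between libraries (adjusted p = 1.00 for each). Among the NT libraries that of replicate 1 was highest for 7 of the 10 members, which were Egr1, Egr2, Ier2, Klf2, Klf6, Klf10 and Myc. With the replicate number as a block the errors were smaller (Klf10 1.67 ± 0.27, Klf6 1.40 ± 0.29), 5 genes (0.0481%) were called higher, and still no member (adjusted p = 0.20 for Klf10 and 0.32 for Klf6). Leaving out the pair of replicate 4 as well was a setting added after the data were seen. It called 44 genes, among them Klf10 at 1.61 ± 0.30 with an adjusted p of 0.036.

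Over the replicate 4 time course the members past 2-fold against NT were 2 higher and 1 lower of the 8 members with enough reads at RC4 (7.79% and 13.5% of genes), none higher and 1 lower of 7 at 8 h (6.51% and 3.38%), 1 higher and none lower at 12 h (3.29% and 2.54%) and none at 24 h (2.13% higher, 2.2% lower). Egr1 and Klf6 were the members higher at RC4 and Klf2 the one lower. Egr1 was unlisted in NT and had 23 reads at RC4. It entered this count only through the library where it is high, so its part in the count is a description. The member lower at 8 h was Ier3 (1040 reads against 1971 in NT, log2 -1.01), and Klf2 was the member higher at 12 h. By 24 h Klf6 was at 27.7 RPM against 32.1 in NT, Klf2 at 65.8 against 69.7, Ier2 at 148 against 129 and Myc at 28.6 against 32.8.

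**Figure D3:**
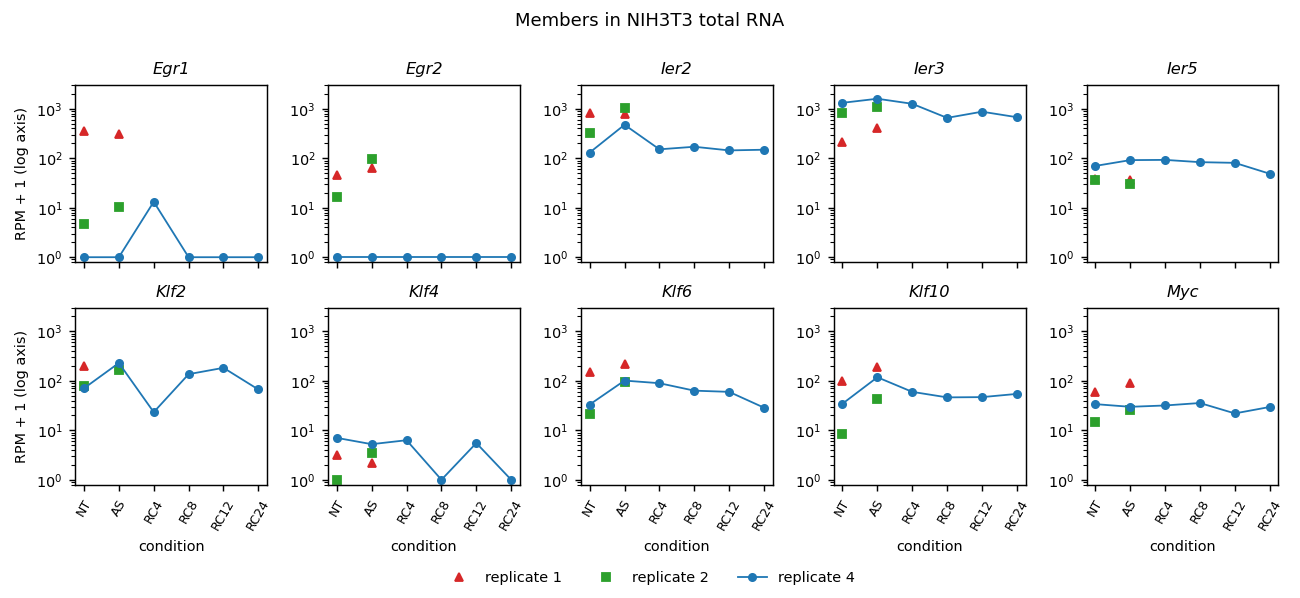
RPM + 1 (y axis, log scale) of each member in NIH3T3 total RNA for replicates 1 and 2 (NT and AS) and replicate 4 (line, NT to 24 h of recovery), where 1 on the axis means unlisted. Egr1 of replicate 1 lies at 352 and 312 RPM, far above the other replicates, and Klf2 of replicate 4 dips to 22.3 RPM at RC4 and is at 135 RPM by 8 h.

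Most members were enriched in the 4sU fraction. Compared over the 4 conditions, 8 of the 10 were higher in the 4sU fraction than in Ft, as were 27.1% of 10624 genes, and none was lower (22.4% of genes were). The log2 differences were 2.58 ± 0.21 (SE) for Klf6 (adjusted p = 1.4e-05), 1.81 ± 0.17 for Myc (2.4e-05), 1.74 ± 0.18 for Klf10 (4.1e-05), 1.54 ± 0.28 for Egr2 (0.00092), 1.37 ± 0.44 for Egr1 (0.025), 1.25 ± 0.42 for Klf4 (0.029), 0.91 ± 0.18 for Ier5 (0.0019) and 0.72 ± 0.20 for Ier3 (0.011). Ier2, at 0.46 ± 0.20, and Klf2, at 0.14 ± 0.16, were not called (adjusted p = 0.076 and 0.52). The median of the 10 members was 1.31, against 0.10 for all genes tested. Leaving out 1 pair of fractions ended the calls of Ier3 and Klf4 without NT at 0 h, AS or NT at 4 h, and that of Egr1 without NT at 0 h (1.18) or AS (0.58), while without RC4 Egr1 stood at 2.27 and Ier2 was called at 0.68. Uridine content, which the labelling depends on, was not adjusted for.

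After arsenite the 4sU level was at least 2-fold higher for 4 of the 10 members (3.92% of genes higher, 8.74% lower) and the Ft level for 6 of 10 (4.21% and 3.26%), without a replicate and with no member lower by that much. These were Egr1, Egr2, Ier2 and Klf6 in both, with Klf2 and Klf10 added in Ft. Egr1 was unlisted in Ft of NT and entered the Ft count only through AS. At RC4 the members past 2-fold were Egr1, Ier3 and Klf6 in the 4sU fraction (8.96% of genes) and these and Klf4 in Ft (8.05%), and Klf2 was the member lower in each (19.9% and 24.7% of genes). The 2 untreated 4sU libraries, taken 4 h apart, put no member past 2-fold (3.44% of genes higher, 0.757% lower), nor did the 2 untreated Ft libraries (2.66% and 1.39%).

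Cytoplasmic input RNA gave 2 AS against 2 NT libraries. No member was called by the unblocked edgeR fit, as against 1 gene called (0.00993% of 10070), and 4 members were at an unadjusted p under 0.05 among 163 genes. Egr2 had a log2 change of 3.69 ± 0.49 (adjusted p = 0.15) and Ier2 of 2.02 ± 0.39 (adjusted p = 0.57), with NT and AS libraries that did not overlap. Klf6 was at 126 and 75.3 RPM in NT and at 186 and 345 RPM in AS (1.25 ± 0.51, adjusted p = 1.0). These calls depended on the fit, since DESeq2 called Egr2 and Ier2, at 3.74 and 2.06.

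TIA1 binds U-rich RNA and gathers in stress granules. Pulldown and input were compared in each condition. Without the lysate as a block no member was called in NT (1.56% of genes were called higher and 1.26% lower) or in AS (0.298% and 0.586%). Input and pulldown of a number came from the same supernatant, and with the number as a block Egr2 was called higher in TIA1 RNA of NT cells (1.78 ± 0.38, adjusted p = 0.0086) and Ier3 lower (-0.98 ± 0.28, 0.032), against 8.93% of genes higher and 9.08% lower. In AS cells Ier3 (-2.32 ± 0.29, 0.0012) and Ier2 (-0.99 ± 0.29, 0.041) were then called lower and Klf6 higher (1.32 ± 0.39, 0.040), against 9.62% higher and 7.39% lower. The Ier3 levels behind this were 152 and 81.1 RPM in TIA1 RNA and 314 and 126 RPM in input of NT cells, and 125 and 72.3 against 598 and 329 RPM in AS cells. Klf6 was at 474 and 938 RPM in TIA1 RNA of AS cells and at 186 and 345 RPM in input. Egr2 was at 20.1 and 31.3 RPM in TIA1 RNA of NT cells against 6.04 and 7.53 in input, and at 96.8 and 110.5 against 82.6 and 109.9 RPM in AS cells. The difference between the AS and NT enrichments of Egr2, -1.79 ± 0.62, did not pass the test (adjusted p = 1.00), nor did that of any other member or gene (0% in either direction, 227 genes at an unadjusted p under 0.05).

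In C2C12 cytoplasm the stress comparison took AS of both states (2 libraries) against 4 NT libraries, with the cell state as a covariate. After 1 h of arsenite Ier2 and Klf10 were called higher, against 0.436% of 9867 genes, and no member was called lower (0.0405% of genes). Ier2 was at 163 and 247 RPM in NT and 791 in AS in C2C12P, and at 157 and 233 in NT and 1500.1 in AS in C2C12D (log2 2.41 ± 0.29, adjusted p = 0.0048). Klf10 was at 95.2 and 80.0 against 190.2 RPM in C2C12P and at 176 and 183 against 331 RPM in C2C12D (0.96 ± 0.16, adjusted p = 0.038). Egr1 was unlisted in the 4 NT libraries and at 6.64 RPM (17 reads) and 30.8 RPM (90 reads) in AS, at least 2.19-fold and 14.4-fold higher if 5 reads are allowed for the unlisted library of 0 h. It entered the test only through the stressed libraries, where it is high, so its values are given as a description. Ier3, at a log2 change of 1.03 ± 0.30, was not called (adjusted p = 0.22). No member was called without the AS library of either state, and Klf10 was not called without any 1 of the 8 libraries, at log2 changes from 0.87 to 1.06.

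At RC4 in the same cells Ier3 was called higher (4.64% of genes were) and Klf2 lower (3.81% were). Egr1 was at 3.68 RPM in C2C12P and 46.3 RPM in C2C12D, at least 1.27-fold and 26.0-fold over NT at 4 h by the same allowance, again as a description. Ier3 was at 114 and 219.6 RPM in NT and 438 at RC4 in C2C12P, and at 85.7 and 159 in NT and 279 at RC4 in C2C12D (1.53 ± 0.29, adjusted p = 0.012). Klf2 was at 248 and 289 against 20.3 RPM in C2C12P and at 82.3 and 122 against 23.5 RPM in C2C12D (-2.67 ± 0.38, adjusted p = 0.0026). Without the RC4 library of C2C12P neither Ier3 (1.33, adjusted p = 0.16) nor Klf2 (-2.20, adjusted p = 0.054) was called, and without that of C2C12D Ier3 was not (1.69, adjusted p = 0.055). Klf6 was not called (1.34 ± 0.48, adjusted p = 0.13) and moved apart in the 2 states, at 155 and 344 RPM in NT and 192 at RC4 in C2C12P against 108 and 128 in NT and 565 at RC4 in C2C12D. Without the NT library of C2C12P at 4 h, Klf6, Ier2 and Ier5 were called too, at 1.74, 1.21 and 1.00. Klf6 was also called without the RC4 library of C2C12P (2.23), and Myc without the NT library of C2C12P at 0 h (1.63). The AS and RC4 comparisons share their 4 NT libraries.

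In untreated total RNA (2 C2C12D against 2 C2C12P libraries) Klf10 and Ier2 were called higher in C2C12D, and Klf2, Egr2 and Ier5 lower. Over all 10530 genes 32.1% were called higher and 29.4% lower, so calls in either direction were as frequent among genes at large. Klf10 was at 54.3 and 63.3 RPM in C2C12P and at 159 and 152 RPM in C2C12D (1.55 ± 0.12, adjusted p = 2.2e-08), and Ier2 at 215 and 219 against 377 and 368 RPM (0.94 ± 0.10, 4.4e-07). Klf4 was at 1.85 RPM and unlisted in C2C12P and at 9.08 and 8.13 RPM in C2C12D, the replicate 3 libraries being at least 6.59-fold apart if 5 reads are allowed, and since it passed the filter on low counts only through C2C12D no test of it is given. Klf2 was lower, at 162 and 189 against 52.6 and 41.8 RPM (-1.75 ± 0.14, 2.2e-08), as were Egr2, at 16.03 and 13.8 against 3.63 and 2.48 RPM (-2.13 ± 0.34, 5.7e-05), and Ier5, at 119.9 and 90.5 against 61.7 and 61.9 RPM (-0.60 ± 0.14, 0.0017). Ier3 (0.26 ± 0.11, adjusted p = 0.055), Klf6 (-0.08 ± 0.11) and Myc (0.15 ± 0.19) were not called, and Egr1 had 6 reads in 1 library and was not tested. Myotube markers differed between these cells as given above, and the part of cell type in each member's change was not tested.

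**Figure D4:**
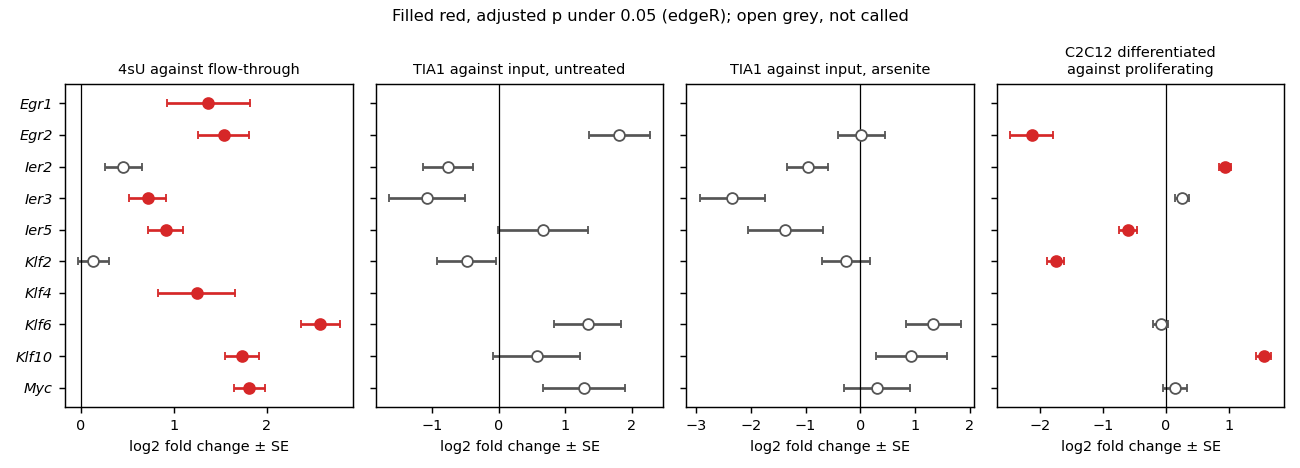
Fitted log2 fold change (x axis) ± SE of each member for 4 replicated comparisons by edgeR, the TIA1 panels without the replicate block. Egr1 and Klf4 are left out of both TIA1 panels because they were unlisted in both NT input libraries. Egr1 was listed in all libraries of the arsenite panel, where its fitted value was 0.98 ± 1.27 (not called). Klf4 is left out of the C2C12 panel because it was unlisted in a C2C12P library, and Egr1 was not tested in C2C12. All 10 members lie above 0 in the 4sU panel, Ier3 lies furthest below 0 in the TIA1 panel of arsenite cells (-2.35), and the C2C12 panel has called members on both sides of 0, in a comparison that called 32.1% of genes higher and 29.4% lower.

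Of the members with 2 main sites in the 3′UTR, Ier5 differed in its use of them between stressed and untreated libraries. Its distal site lies 1159 bases past the proximal one, so that the longer 3′UTR of 2137 bases holds 2 ATTTA and 31 TTTT against 0 and 14 in the shorter one. The share of reads at the distal site in the 4sU fraction was 12.4% in NT (95% Wilson interval 10.8 to 14.3, 1336 reads), 3.25% in AS (2.55 to 4.12), 12.2% in NT at 4 h (10.8 to 13.9) and 3.35% at RC4 (2.73 to 4.10). In Ft it was 7.04%, 3.04%, 5.60% and 1.10%, the intervals of AS and RC4 lying below those of their untreated libraries in both fractions. In cytoplasmic input the share in NT was higher than in either fraction, at 42.5% and 41.5%, and it was 24.4% and 8.00% (6 distal reads) in AS. In TIA1 RNA it was 60.9% and 74.6% in NT, and 0 of 74 reads and 27.6% in AS. The distal to proximal ratio was lower in AS in 6 of the 6 pairs with over 5 reads at each site, with log2 changes from -3.03 to -0.23 and a median of -1.23, and in both such pairs at RC4 (-2.01 and -2.42). In the replicate 4 time course it was higher than NT at 8 h (0.27) and 12 h (0.62). In the 4sU fraction the AS change of -2.08 had 2.53% of 3395 genes measured the same way below it (median of these genes -0.33), and that at RC4 had 2.97% of 4213 genes below it (median -0.42). The total RNA changes of -0.23 (replicate 1) and -0.48 (replicate 2) had 40.2% of 3329 and 25.1% of 4070 genes below them. The median gene was also lower in each of the 6 AS pairs (-0.33 to -0.049), and how many genes were lower in all 6 was not counted. In total RNA the share was 20.4%, 41.6% and 9.71% in NT and 17.9%, 33.8% and 0 of 107 reads in AS. C2C12 cytoplasm had 0 to 5 distal reads of Ier5 in each library.

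**Figure D5:**
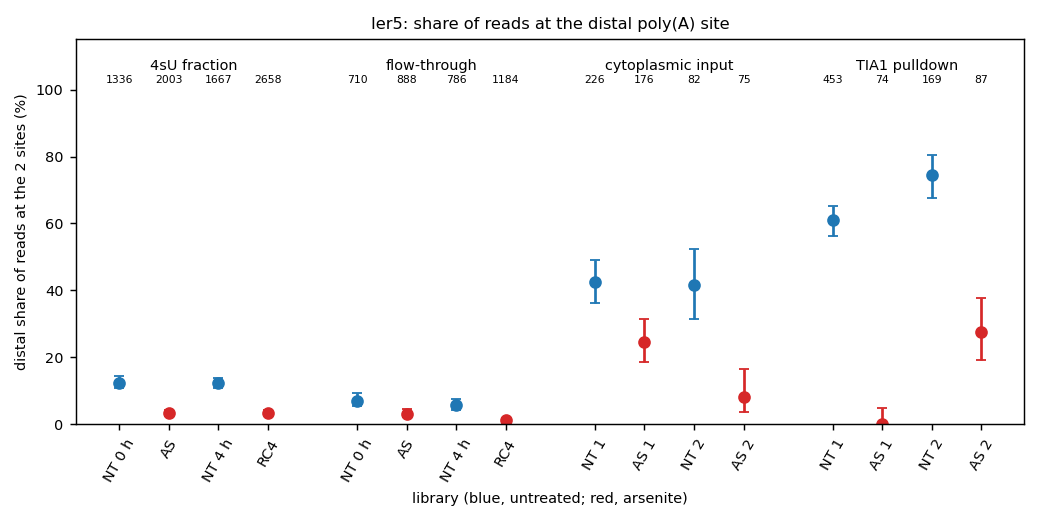
Share of Ier5 reads at the distal of its 2 poly(A) sites (y axis, percent; bars are 95% Wilson intervals; numbers above are the reads at both sites) in the 4sU, flow-through, cytoplasmic input and TIA1 libraries, untreated in blue and arsenite or recovery in red. Each red point lies below the blue points of its group of libraries.

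Myc and Klf6 could be tested for site use in all 6 total RNA libraries. The distal share of Myc was 64.3% ± 14.9 in NT and 79.8% ± 7.89 in AS (SD, n = 3), higher by 15.4 points and in 3 of 3 pairs. It did not pass the unpaired 2-sided exact permutation test (p = 0.30, where 0.10 is the smallest the design allows). The exact sign-flip permutation test on the 3 pairs gave p = 0.25, the smallest that test allows. Neither exact permutation test could go under 0.05 with 3 libraries a group, so they cannot decide whether the share differed. Over the 6 AS pairs with over 5 reads at each site the distal to proximal ratio of Myc was higher in all 6, with a median log2 change of 0.90. In these pairs 71.5% (4sU) to 99.2% (total RNA of replicate 1) of genes lay below it. The distal share of Klf6 was 86.5% ± 7.45 in NT and 86.8% ± 2.71 in AS (exact p = 1.0), and its ratio was higher in 6 and lower in 3 of 9 pairs. In the 4sU fraction Klf6 was at 92.9% distal in NT at 4 h and 85.2% at RC4 (Wilson 83.8 to 86.6), and Myc at 79.0% and 69.8% (67.6 to 72.0). The log2 changes of the distal to proximal ratio behind these shares were -1.19 for Klf6 and -0.70 for Myc, with 15.0% and 35.1% of 4213 genes below them. Of the other RC4 pairs, Myc in the time course (0.73) and Klf6 in C2C12D (1.01) went the other way.

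The pathway around the members was read from fixed lists, described by counts. Of 15 kinase and SRF pathway genes (MAP kinases, ELK factors, SRF and its cofactors), 14 were tested and none was called in any of the AS or RC4 comparisons. None was past 2-fold in RNA-seq after arsenite either (3.98% of genes were higher, 1.86% lower). The AS comparisons called at most 0.436% of genes in a direction, and RC4 in C2C12 cytoplasm called 4.64% higher and 3.81% lower. In RNA-seq at RC4, Mkl1 (2.34-fold) and Map2k1 (2.13-fold) were past 2-fold higher and Mapk14 lower (0.392-fold), as were 16.1% and 14.7% of genes. Of 9 EGR corepressors and MYC partners, 8 or 9 were tested and none was called in those comparisons either, and in RNA-seq Mxd1, a MAX partner that opposes MYC, was 8.32-fold higher in AS and 9.93-fold at RC4. Mnt, another such partner, was at 0.50-fold of NT in AS and at 2.64-fold at RC4, and Mxi1 was 3.88-fold at RC4. Of 10 further EGR, KLF and IER genes, 9 were measured in RNA-seq and 2 were past 2-fold higher after arsenite (3.98% of genes), among them Egr3 (6.32-fold). In C2C12 cytoplasm none of 7 was called in AS. At RC4 Klf11 (1.68 ± 0.32) and Klf5 (1.37 ± 0.27) were called higher (4.64% of genes) and Egr3 lower (-1.10 ± 0.30, 3.81% of genes). Of 25 other immediate early genes, 17 were past 2-fold higher in RNA-seq after arsenite (3.98% of genes). In C2C12 cytoplasm 11 were called higher in AS (0.436% of genes), among them Fos (log2 5.33 ± 0.27) and Nr4a1 (3.44 ± 0.35), with a median of 1.46 against 0.03 over all genes tested. At RC4 16 of the 25 were called higher and 1 lower, as were 4.64% and 3.81% of genes. In the 4sU fraction 19 of the 25 were higher than in Ft, as were 27.1% of genes.

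The genes whose level followed the members' mean most closely over the 10 total RNA libraries were Zbtb2 (Pearson r = 0.94), Pvr (0.93), Bre (0.93), Zfp36 (0.93), which encodes a protein that binds AU-rich elements and speeds decay, and Stil (0.92), out of 8933 genes ranked. These libraries share 3 replicate numbers, and the members' mean was highest in both libraries of replicate 1, so the likeness is a description of these 10 libraries.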

How the data were processed

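The authors sequenced 3′READS and RNA-seq libraries (Bowtie2 and STAR, mm9) and deposited raw counts of reads per PAS and per gene, from which values under 5 are missing. PASs within 24 nt were joined across libraries and assigned to GENCODE vM1 genes extended by 4 kb, and PAS read counts were summed per gene. Levels are RPM of all PAS reads, ratios used RPM + 1, and RNA-seq counts were scaled by median ratios, with per-kb levels over coding length. Replicated comparisons used edgeR 4.0.16 (filterByExpr, TMM, quasi-likelihood F-test, Benjamini-Hochberg over all genes, called under 0.05) on all libraries of a set. DESeq2 1.42.0, RLE scaling, no filter, a 1 kb extension, a replicate block and left-out libraries were alternatives. The edgeR script was tested on simulated counts. Members and gene lists were chosen with earlier results of these data known. The text names all members, up to 4 called genes of largest change per other list (others were named after their values were seen) and the 5 most correlated genes. Same-numbered total RNA libraries deviated together (r = 0.86, 0.87 and 0.78), so the numbers pair them.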

Additional observations from a re-analysis of the deposited data

Results flagged for a closer look

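At 4 h of recovery Klf6 and Ier5 had opposite signs in the 2 states of C2C12 cells, each against its own untreated library of 4 h. Klf6 had a log2 ratio of -0.84 in C2C12P and 2.14 in C2C12D, and Ier5 of -1.01 and 1.03. With 1 library per condition and state the difference was not tested. In C2C12P the 2 untreated libraries differed as much between themselves, with log2 ratios of 4 h to 0 h of 1.14 for Klf6 and 1.17 for Ier5. Against the untreated library of 0 h both members were higher at recovery in C2C12P as well, Klf6 at 192 against 155 RPM and Ier5 at 70.0 against 62.4 RPM.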

How the results depend on the processing

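Sites under 5 reads are absent and most conditions have 1 library, so low members (Egr1, Klf4) and unreplicated ratios are the least certain. Of the planned and added alternatives, 111 left a comparison's count of members near its main value and 18 moved it, and of the members' values 785 stayed, 104 moved, 28 lost their call, 24 gained one and 7 changed sign. With the replicate number as a block, total RNA still had no member called, and 1 (Klf10) without the pair of replicate 4, an alternative chosen after seeing the data. Leaving out 1 pair or library otherwise moved the number of members called from 8 to between 5 and 9 for 4sU against Ft, from 3 to between 0 and 2 for C2C12 AS, and from 3 to between 2 and 6 for C2C12 RC4, counts that include Egr1. Without the condition block, 3 members were called for 4sU against Ft. For cytoplasmic input, where same-numbered AS and NT libraries deviated together (r = 0.48) but 2 pairs and the labels do not settle whether the numbers pair them, 3 members were called with no filter (Egr1, Egr2 and Ier2), 2 with DESeq2 and 2 with the replicate block (Egr2, 3.69, adjusted p = 0.0034, and Ier2, 2.02, adjusted p = 0.027, by edgeR), against 0.129% of genes higher and 0.0199% lower. For TIA1 in NT 2 members were called with no filter, 2 with DESeq2 and 2 with the block, and in AS 1, 2 and 3. The cause was not tested in any of these. RLE scaling moved the median of all genes for TIA1 in AS from 0.17 to 0.04, and no member's call differed under it in any comparison. The number of genes called moved from 1 to 25 with no filter, 16 with DESeq2 and 15 with the block for input, from 284 to 1149, 1226 and 1813 for TIA1 in NT (0 to 151 with a library left out), from 89 to 957, 1057 and 1713 in AS (0 to 302), from 0 to 10 and 5 for the difference of both (no filter and DESeq2), from 5257 to 3285 for 4sU against Ft without the condition block, from 47 to 216 for C2C12 AS with DESeq2 (6 to 28 with a library left out), from 834 to between 307 and 545 for C2C12 RC4, and from 0 to 5 in total RNA with the block (44 without the pair of replicate 4, 2 without that of replicate 2). Against the mean of the untreated total RNA libraries, 20 in place of 11 member values of replicate 4 (AS and 4 recovery times) were past 2-fold and Egr1 at RC4 turned to -3.18. Signs also turned for Klf2 in 4sU against Ft without NT at 0 h (-0.0074), for Klf6 and Myc in C2C12 total RNA with a C2C12D library left out (-0.18 to 0.0054 and -0.057 to 0.32), and for the distal share of Klf6 (-1.59 to 3.85 points with a replicate left out, -2.58 with the other choice of sites). With over 20 reads per site 0 members could be tested for site use in place of 2.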

Other observations

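The 2 assays gave the members different orders of level. Egr1 stood at 623 RPKM of coding sequence in RNA-seq of AS cells, above Ier2 at 129, whereas in 3′READS total RNA of AS replicates 2 and 4 it was at 9.32 RPM and unlisted beside 1031 and 474 RPM of Ier2. Klf4, at 29.5 RPKM in AS, was at 4.24 RPM at most in the 3 AS libraries of total RNA. Klf2 was the reverse, with the lowest RNA-seq level of the members in NT (3.71 and 3.68 RPKM) and 69.7 to 199 RPM in 3′READS. The RNA-seq libraries carry the replicate number 3, which no 3′READS library of NIH3T3 total RNA has, and Klf2 was also the member with no rise in RNA-seq after arsenite (76 reads in AS and 75 in NT) while it was higher in 8 of the 10 AS pairs.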
